A study of Mus musculus with 4 samples.

Results

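Of the 21827 gene entries in a table of male and female mouse liver RNA, 7 were followed here as genes of periportal hepatocytes, picked by symbol: Alb, Cyp2f2, Pigr, Hsd17b13, Gls2, Aldh1b1 and Ctsc. All 7 had 1 entry each and a level in both sexes. The livers were those of 12 male and 12 female mice of the outbred CD-1 stock, aged 8 weeks, untreated in both groups. RNA of 6 livers was combined per pool, giving 2 pools for each sex, and the 4 pools were sequenced as poly-A-enriched RNA with a strand-specific preparation. The table holds 1 value per gene and sex, so the spread between pools cannot be shown and no gene was tested anew. The levels imply about 11.2 M reads for male and 14.7 M for female liver. A gene is called here where the adjusted p for the sex difference in the authors' deposited table lies under 0.05. The direction is that of their normalized ratio. Genes at the lowest value of the scale in 1 or both sexes, with the ratio set to 1, are not called at any p. For Ctsg, at that value in both sexes, the authors' deposited table gives a ratio of 1 with an adjusted p of 0.026. Since livers were combined before sequencing, that p cannot measure spread between single livers. Whether it measures spread between the 2 pools of each sex is not stated in the sources used here.

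Blood enters a liver lobule beside the portal vein, with the hepatic artery and bile duct, and leaves at the central vein. Hepatocytes along that path differ in what they make: cells at the portal end are known for urea synthesis, glucose production, glutamine breakdown and plasma protein secretion, and cells at the central end for glutamine synthesis, bile acid synthesis and much of drug metabolism. The genes described here serve different tasks of the portal end. Alb encodes albumin, the main plasma protein, and Pigr the receptor that carries polymeric immunoglobulin A across epithelia into secretions such as bile. Cyp2f2 encodes a cytochrome P450 that oxidizes small aromatic compounds such as naphthalene, Aldh1b1 a mitochondrial aldehyde dehydrogenase and Hsd17b13 a lipid droplet protein of the hydroxysteroid dehydrogenase family. Gls2 encodes the liver-type glutaminase, which frees ammonia from glutamine, and Ctsc encodes cathepsin C, a lysosomal dipeptidyl peptidase that also activates serine proteases of immune cells. RNA of whole liver does not keep position in the lobule, and in such bulk samples fewer cells of a type and less RNA per cell cannot be told apart.

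The 4 genes with the smallest adjusted p-values did not all move in the same direction: Cyp2f2 was higher in male liver, and Alb, Ctsc and Aldh1b1 were higher in female liver. The 250 bases upstream of their transcription starts are printed so that promoters of genes with opposite directions can be compared (RefSeq, GRCm38.p6, all on the + strand, 5′ to 3′). This build differs from that of the expression table, mm9. Capitals mark each match, on either strand, to 1 of 5 motifs.
Cyp2f2 (chr7:27119705-27119954): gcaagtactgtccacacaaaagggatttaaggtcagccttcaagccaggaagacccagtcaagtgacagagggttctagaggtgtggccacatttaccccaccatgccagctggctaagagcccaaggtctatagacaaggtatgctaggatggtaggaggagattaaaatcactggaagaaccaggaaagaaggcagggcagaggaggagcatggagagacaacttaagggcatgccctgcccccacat
Alb (chr5:90460620-90460869): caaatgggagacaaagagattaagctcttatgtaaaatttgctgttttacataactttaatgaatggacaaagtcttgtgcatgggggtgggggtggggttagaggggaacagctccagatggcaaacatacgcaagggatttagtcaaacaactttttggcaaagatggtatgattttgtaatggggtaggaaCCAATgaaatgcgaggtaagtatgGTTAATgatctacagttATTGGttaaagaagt
Ctsc (chr7:88277835-88278084): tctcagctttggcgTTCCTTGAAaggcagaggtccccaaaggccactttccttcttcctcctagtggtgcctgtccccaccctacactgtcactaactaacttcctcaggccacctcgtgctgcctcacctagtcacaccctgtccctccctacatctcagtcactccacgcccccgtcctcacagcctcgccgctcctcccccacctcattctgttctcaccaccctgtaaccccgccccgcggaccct
Aldh1b1 (chr4:45798772-45799021): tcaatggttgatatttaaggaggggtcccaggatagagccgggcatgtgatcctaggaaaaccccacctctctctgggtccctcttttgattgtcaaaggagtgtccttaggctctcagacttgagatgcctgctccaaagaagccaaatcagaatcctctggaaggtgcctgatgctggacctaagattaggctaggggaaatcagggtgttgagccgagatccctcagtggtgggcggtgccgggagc

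The motifs were the HNF1 core GTTAAT, the CCAAT box CCAAT, the E-box CACGTG, the STAT5 core TTCNNNGAA and the HNF4 core CAAAGTCC, none of which can lie wholly inside another. The albumin promoter, whose binding by HNF1 is textbook knowledge, held the HNF1 core 27 to 32 bases upstream of the RefSeq start. It also held CCAAT boxes at 52 to 56 bases on the + strand and 11 to 15 bases on the - strand. The Ctsc promoter held TTCCTTGAA, a match to the STAT5 core, 228 to 236 bases upstream. No match to the 5 motifs lay in the windows of Cyp2f2 and Aldh1b1, or in that of Hsd17b13. The window of Pigr held the E-box 66 to 71 bases upstream. Of 32851 mouse promoter windows of the same length, 6.4% held the HNF1 core, 33.8% the CCAAT box, 6.0% the E-box, 7.0% the STAT5 core and 1.2% the HNF4 core. The promoters also differed in base composition: GC content was 39.2% for Alb, 51.6% for Cyp2f2, 53.2% for Aldh1b1 and 60.4% for Ctsc, against a median of 52.4% over all windows. The Ctsc window held 9 CpG dinucleotides and the Cyp2f2 window 0. These matches are descriptions of letters and do not show that a factor was bound.

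The genes spanned the upper range of liver expression. Their deposited values had the same order in both sexes, although some neighbours were too close in female liver to be ordered. Levels are the authors' log2 RPKM, that is reads scaled by transcript length and library depth, so genes can be compared per length. Albumin RNA was the most abundant of 9735 compared genes whose log2 RPKM reached 1 in either sex, at 14.83 in male and 15.52 in female liver, which is an RPKM of 29025 and 46923. It made up 6.11% of the summed RPKM of all genes in male and 9.86% in female liver. Cyp2f2 stood at 9.94 in male and 9.03 in female liver, ranks 59 and 101 among those genes. Pigr stood at 9.14 and 8.97, ranks 95 and 107. Cyp2f2 and Pigr are thus also among the abundant RNAs of the liver. Hsd17b13 had a log2 RPKM of 7.80 in male and 7.56 in female liver. Gls2 had 7.11 and 7.48. Aldh1b1 had 5.62 in male and 6.62 in female liver, ranks 1209 and 590, and Ctsc had 5.30 and 6.24, ranks 1500 and 755. These last 2, although lowest in the group, were still within the top 15.4% of the 9735 genes in either sex.

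**Figure D1:**
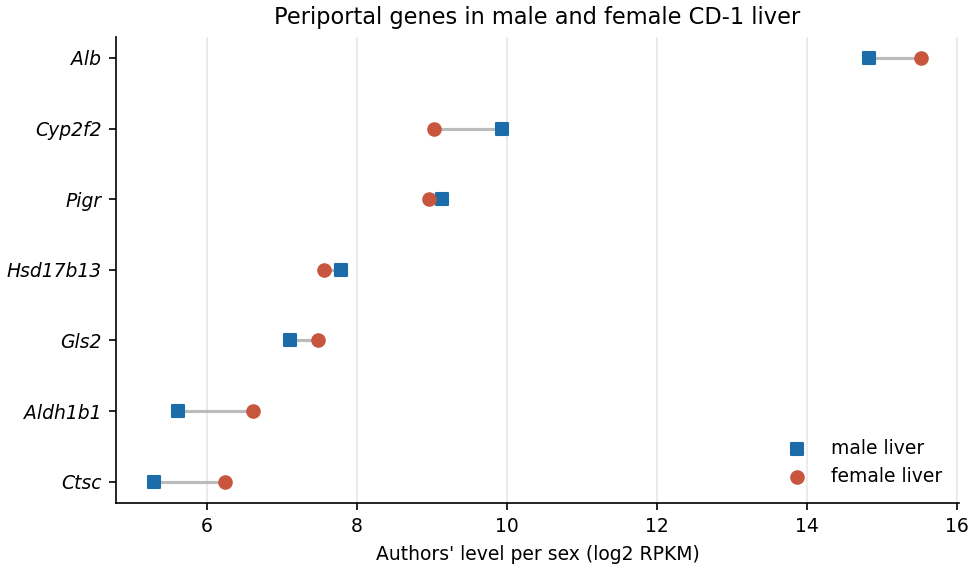
Authors' log2 RPKM (x axis) of the 7 periportal genes (rows, ordered by male level) in male liver (blue squares) and female liver (red circles), 1 value per sex without error bars because the pools are not separated. Alb, Gls2, Aldh1b1 and Ctsc lie further right in female liver, and Cyp2f2, Pigr and Hsd17b13 in male liver.

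Because the differences varied in size and direction, distances between the genes changed with sex, while the order of the deposited values did not. Cyp2f2 exceeded Pigr 1.75-fold in male liver and 1.05-fold in female liver. Hsd17b13 exceeded Gls2 1.60-fold in male liver and 1.06-fold in female liver. With no spread between pools in the table, neighbours this close in female liver cannot be ordered. The ratio of Alb to Cyp2f2 was 29.5 in male and 89.6 in female liver, and Cyp2f2 exceeded Aldh1b1 20.1-fold in male but 5.33-fold in female liver. Aldh1b1 and Ctsc kept nearly the same distance, 1.24-fold in male and 1.30-fold in female liver. These ratios within a sex come straight from the levels and were not tested.

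Of the 7 genes, 5 were called, 1 of them male-higher and 4 female-higher. Among all 13763 compared genes, those with a ratio between the sexes, 17.4% were called, 7.21% male-higher and 10.2% female-higher. Since the genes here are abundant, the 1946 compared genes whose log2 RPKM reached 5 in either sex are a nearer background: 20.6% of them were called, 11% male-higher and 9.56% female-higher. At the stricter threshold of 0.01, 4 of the 7 were called, against 10.2% of all compared genes. The median normalized log2 ratio of male over female was -0.39 for the 7 genes, -0.02 for all compared genes and 0.01 for the abundant ones. With 7 genes chosen when earlier results of these data were known, no test was made of the group as a whole.

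Cyp2f2 (chromosome 7, 27904974 to 27918679, mm9, + strand, NM_007817) was the male-higher member. It was 1.90-fold higher in males by the authors' deposited table (normalized log2 ratio 0.93, adjusted p = 7.73e-07). The plain difference of its levels was 0.91 on the log2 scale. Read numbers were implied from the floor of the scale and transcript length, and came to 20634 in male and 14378 in female liver. Counting error alone allows a ratio of 1.84 to 1.92 (exact Clopper-Pearson 95% interval), so depth does not limit this value. Like the other intervals here, it leaves out differences between mice and pools.

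Aldh1b1 (chromosome 4, 45811894 to 45817480, mm9, + strand, NM_028270) had the largest ratio of the 7. It was 1.99-fold higher in females by the authors' deposited table (normalized log2 ratio -0.996, adjusted p = 2.75e-07). Its implied reads were the fewest of the 6 genes with a known transcript length, 1266 in male and 3325 in female liver, and allow 1.88-fold to 2.14-fold by counting. Ctsc (chromosome 7, 95426645 to 95459398, mm9, + strand) was 1.90-fold higher in females by the authors' deposited table (normalized log2 ratio -0.93, adjusted p = 1.97e-06). Its entry is keyed to a cDNA clone, AK049406, rather than a RefSeq transcript, so no length was matched and no counting interval is given. Among all compared genes, 13.5% had a larger ratio in either direction than Aldh1b1, and 15.1% a larger one than Ctsc or Cyp2f2. These shares include genes of few reads. The median size of the log2 ratio of called genes was 0.905 among all compared genes and 0.62 among the abundant ones.

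Albumin itself differed by sex. Alb (chromosome 5, 90889915 to 90905629, mm9, + strand, NM_009654) was 1.62-fold higher in females by the authors' deposited table (normalized log2 ratio -0.70, adjusted p = 0.000181). Its implied reads were 663677 in male and 1404860 in female liver, for which counting alone gives 1.61-fold to 1.62-fold. The adjusted p of Alb was larger than that of Aldh1b1, which had far fewer reads and a larger ratio. Since albumin takes a larger share of the female total, levels were also rescaled without it. The log2 ratio of Alb was then -0.75 and that of Cyp2f2 0.85. No member changed direction, since this shift of all genes, 0.0555 on the log2 scale, was smaller than each member's plain difference.

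Gls2 (chromosome 10, 127631691 to 127647060, mm9, + strand, NM_001033264) was called with a small ratio, 1.31-fold higher in females by the authors' deposited table (normalized log2 ratio -0.39, adjusted p = 0.038). It was not called at a threshold of 0.01. Its implied reads, 4004 in male and 6766 in female liver, allow 1.24-fold to 1.34-fold by counting. Spryd4, on the opposite strand, overlaps the last 95 bases of the Gls2 span, and reads in that stretch cannot be assigned to either gene if strand was not used in counting, which the sources used here do not give. Spryd4 had a ratio of 1.02 in the authors' deposited table and was not called (adjusted p = 0.911).

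Hsd17b13 and Pigr were not called. Hsd17b13 (chromosome 5, 104384461 to 104406407, mm9, - strand, NM_198030) had a normalized log2 ratio of 0.25, or 1.19-fold towards male liver, by the authors' deposited table (adjusted p = 0.185). Pigr (chromosome 1, 132723261 to 132748826, mm9, + strand, NM_011082) had 0.16, or 1.11-fold towards male liver, by the authors' deposited table (adjusted p = 0.405). Counting alone allows a male over female ratio of 1.13 to 1.22 for Hsd17b13 and of 1.11 to 1.15 for Pigr, both above 1. Read depth thus does not limit these 2 values, and a missed threshold does not show that the sexes were alike.

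**Figure D2:**
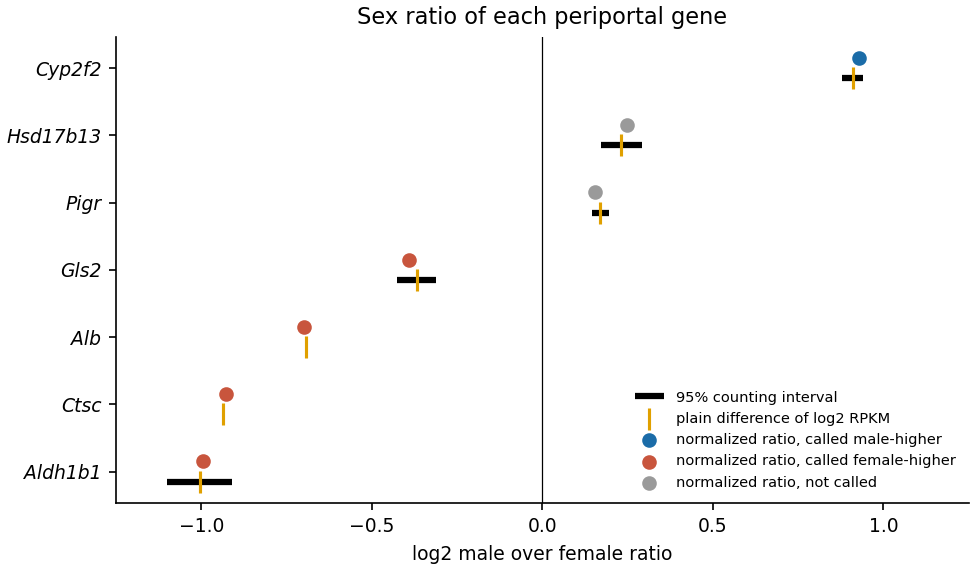
Log2 male over female ratio (x axis) of the 7 genes (rows): coloured points are the authors' normalized ratio, yellow ticks the plain difference of log2 RPKM, and black bars the exact 95% counting interval of the ratio of implied reads (not drawn for Ctsc; for Alb narrower than the tick). The normalized ratio runs from 0.93 for Cyp2f2 to -0.996 for Aldh1b1, and Hsd17b13 and Pigr, in grey, were not called.

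**Figure D3:**
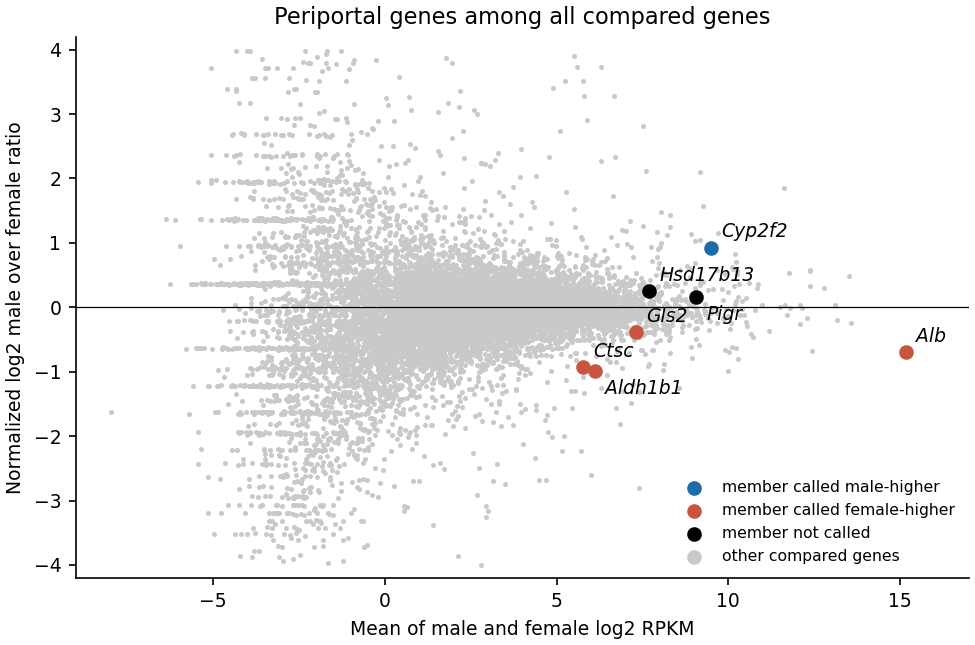
Normalized log2 male over female ratio (y axis) against the mean of the male and female log2 RPKM (x axis) for the compared genes (grey, 13671 within the axis, with 87 beyond it and 5 without a level not drawn) with the 7 periportal genes marked. Cyp2f2 lies at 0.93, Hsd17b13 and Pigr lie near 0, and Aldh1b1, Ctsc and Alb lie at -0.996, -0.93 and -0.70.

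The ratio of each gene was set beside those of its protein relatives, in lists chosen from general knowledge of mouse liver with earlier results of these data known. Counts of called genes in these lists stand against 17.4% called among all compared genes. Of 13 compared aldehyde dehydrogenases, 1 was male-higher and 2 female-higher, with a median log2 ratio of -0.02. Aldh1b1 was female-higher while its close mitochondrial relative Aldh2, which clears acetaldehyde, had a normalized log2 ratio of -0.007 by the authors' deposited table (adjusted p = 0.97). Aldh1a1, a cytosolic enzyme that oxidizes retinal, was 1.31-fold higher in males by the authors' deposited table (adjusted p = 0.0358). Aldh1l2, a mitochondrial folate enzyme, was 11.4-fold higher in females by the authors' deposited table (adjusted p = 0.0155), but it had only 2 implied reads in male and 16 in female liver, which allow 1.44-fold to 54.8-fold by counting. Apart from this scarce RNA, the called members of the family were Aldh1b1 and Aldh1a1, on opposite sides.

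Among 12 compared cathepsins, lysosomal proteases for the most part, none was male-higher and 2 were female-higher, Ctsc and Ctso (1.39-fold in the authors' deposited table, adjusted p = 0.0148). Ctsh, an aminopeptidase of the same protease family, stood at 6.99 in male and 6.94 in female liver on the log2 RPKM scale and was not called from the authors' deposited table (adjusted p = 0.876). The median of the list was -0.30. Ctsg, a neutrophil protease, was at the lowest value of the scale in each sex, and Ctsw lay above it in female liver alone, with no ratio given.

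The Hsd17b family held 9 compared genes, of which Hsd17b4, the peroxisomal multifunctional enzyme, was male-higher (1.30-fold in the authors' deposited table, adjusted p = 0.0437) and none female-higher. Hsd17b13 and Hsd17b11, related lipid droplet proteins encoded 12.4 kb apart, had nearly the same proportion in both sexes. Per length Hsd17b13 exceeded Hsd17b11 2.42-fold in male and 2.41-fold in female liver. Hsd17b11 had a ratio of 1.14 in the authors' deposited table and was not called (adjusted p = 0.33).

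Among 14 compared genes of glutamine and glutamate handling, 2 were male-higher and 5 female-higher, with a median of -0.30. Gls2 was accompanied on the female side by Oat, the ornithine aminotransferase (2.28-fold, adjusted p = 5.46e-10), Got1, the cytosolic aspartate aminotransferase (1.91-fold, adjusted p = 9.51e-07), and Slc1a2, a glutamate transporter (1.61-fold, adjusted p = 0.000353), in the authors' deposited table. The fifth female-higher gene was Glud1, glutamate dehydrogenase. The amino acid transporters Slc7a2 (1.68-fold, adjusted p = 7.09e-05) and Slc38a4 (1.47-fold, adjusted p = 0.00317) were higher in males by the authors' deposited table.

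Albumin's relatives are also on chromosome 5. Afm, which encodes the vitamin E carrier afamin and lies 42.3 kb from Alb, was 1.45-fold higher in females by the authors' deposited table (adjusted p = 0.00464). Gc, the vitamin D binding protein gene, 1003.1 kb from Alb, with a log2 RPKM of 11.68 in male and 11.76 in female liver, was not called from the authors' deposited table (adjusted p = 0.523). Afp, the fetal relative, was low at -0.97 and -1.77 and not called from the authors' deposited table (adjusted p = 0.255). None of 4 genes of immunoglobulin transport was called. Pigr was the most abundant of them, and Fcgrt, the neonatal Fc receptor chain, had a log2 RPKM of 6.34 in male and 6.32 in female liver. In the list of single-gene Cyp2 subfamilies 2 of 5 compared genes were called, both male-higher, Cyp2f2 and Cyp2u1 (3.63-fold in the authors' deposited table, adjusted p = 2.73e-17), while Cyp2e1, at 11.68 in male and 11.64 in female liver, had a ratio of 1.02 by the authors' deposited table (adjusted p = 0.852).

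The nearest neighbours on either side of the members, or overlapping them, were taken where log2 RPKM reached 1 in either sex. Of these 15 neighbours 4 were called, against 17.4% of all compared genes. Cyp2a12 and Egln2, on either side of Cyp2f2, were not called. Ctsc lay between Nox4, an oxidase gene 879.5 kb away that was 19.8-fold higher in males by the authors' deposited table (adjusted p = 2.41e-58), and Rab38, 119.4 kb away, which was 3.97-fold higher in females by the authors' deposited table (adjusted p = 0.000342). Both reached the required level only in the sex where they were higher. Nox4 had a log2 RPKM of -0.14 in female liver, and Rab38 had -0.73 in male liver. The neighbour of Aldh1b1 on the side of higher coordinates, 1300002K09Rik, was 1.47-fold higher in females by the authors' deposited table (adjusted p = 0.00339), and Shb, on its other side, was not called. Afm was the fourth. The neighbours of Hsd17b13, Gls2 and Pigr were not called.

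Among 16 other genes known for the portal end of the lobule, all of them compared, 1 was male-higher and 2 female-higher, or 18.8% against 71.4% of the 7 genes above, and the median log2 ratio was -0.20. Ass1, which joins citrulline and aspartate in the urea cycle, was 1.41-fold higher in females by the authors' deposited table (adjusted p = 0.00821). Uroc1, urocanate hydratase of histidine breakdown, was 1.33-fold higher in females by the authors' deposited table (adjusted p = 0.0303). Agxt2l1 (Etnppl), which breaks down phosphoethanolamine, was 1.54-fold higher in males by the authors' deposited table (adjusted p = 0.00113). The other urea cycle genes Cps1, Otc, Asl and Arg1 and the glucose-producing genes Pck1, G6pc and Fbp1 were among the 13 not called, with normalized log2 ratios between -0.32 for Fbp1 and 0.17 for Pck1. The 18.8% called in this list is near the 20.6% of abundant genes.

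Genes of the central end lay mostly on the female side. Of 17 compared pericentral genes, 1 was male-higher and 11 female-higher, with a median of -0.64. Called were thus 70.6%, against 17.4% of all compared genes. The largest female-higher ratios were those of Lgr5, a receptor that amplifies Wnt signalling (2.64-fold, adjusted p = 5.93e-06), Nkd1, a Wnt-induced antagonist (2.60-fold, adjusted p = 0.000181), and Cyp7a1, the rate-limiting enzyme of bile acid synthesis (2.51-fold, adjusted p = 5.85e-12), in the authors' deposited table. Aldh1a1 was the male-higher one. Cyp2e1 and Cyp1a2, abundant P450 genes of the same zone, had ratios of 1.02 and 1.01 by the authors' deposited table (adjusted p = 0.852 and 0.957). The difference between the lists was not tested, and they differ in abundance: Lgr5 and Nkd1 lie at 1.63 and 0.81 on the log2 RPKM scale in female liver, below each periportal gene named here. All 4 mid-lobular genes were called, Hamp (1.74-fold) and Hamp2 (18.1-fold) female-higher and Igfbp2 (1.42-fold) and Cyp8b1 (2.13-fold) male-higher in the authors' deposited table.

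**Figure D4:**
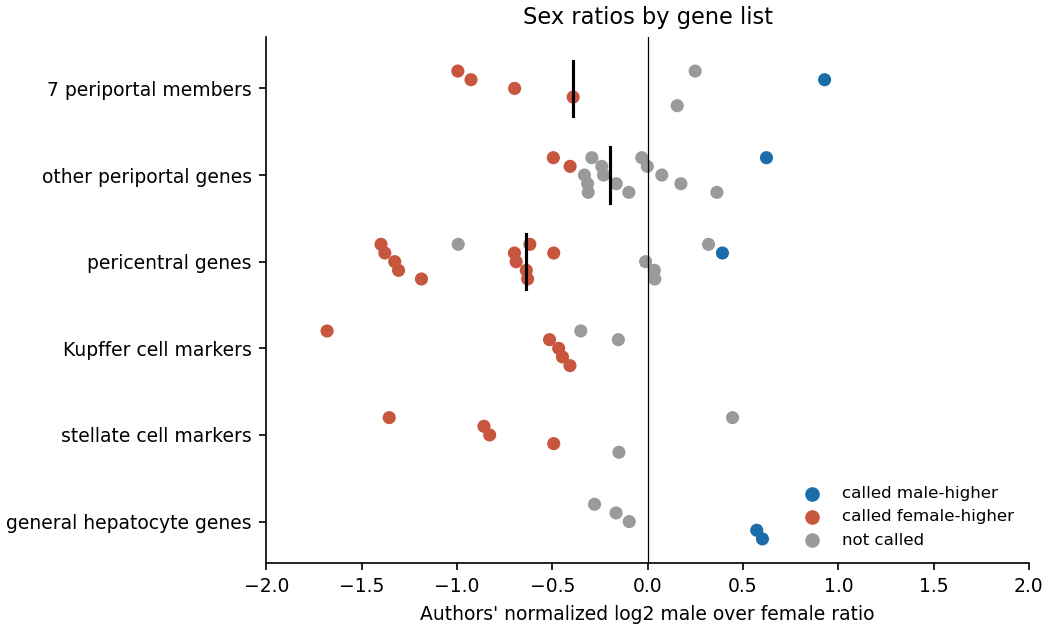
Authors' normalized log2 male over female ratio (x axis) of each compared gene in 6 lists (rows: the 7 periportal genes, other periportal genes, pericentral genes, Kupffer cell markers, stellate cell markers and general hepatocyte genes), coloured by call, with points spread vertically for visibility and black bars at the medians of the 3 zonal lists. The medians are -0.39, -0.20 and -0.64 for the 7 periportal genes, the other periportal genes and the pericentral genes, and Cyp2f2 is the rightmost point of these 6 lists.

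Some of these genes are also made by other cells of the liver, Ctsc by macrophages and other immune cells and Pigr by bile duct epithelium, so markers of other cells were summed. Counts of called markers stand against 10.2% female-higher and 7.21% male-higher among all compared genes. The 7 Kupffer cell markers had a summed RPKM of 165.5 in male and 211.5 in female liver. Of them, 5 were female-higher and none male-higher. The largest ratio was that of Marco, a scavenger receptor (3.21-fold by the authors' deposited table, adjusted p = 1.11e-07). Marco was the 1 Kupffer cell marker still called at a threshold of 0.01. Of 5 compared markers of neutrophils and monocytes 1 was female-higher, with Mpo at the floor in both sexes and sums of 7.45 and 10.05. Of 6 compared markers of lymphocytes and plasma cells 1 was female-higher, with sums of 3.32 and 4.98. It was Nkg7, with only 1.1 implied reads in male and 21.6 in female liver, which allow 2.72-fold to 693-fold by counting. Its log2 RPKM was -3.19 in male and 0.74 in female liver, so most of the difference between these sums comes from Nkg7. The part of immune cells in the female-higher value of Ctsc was not tested. Among 6 compared bile duct markers Spp1 was male-higher and Sox9 female-higher, with sums of 46.6 in male and 31.6 in female liver. Spp1 made up most of both sums, at an RPKM of 43.9 in male and 27.9 in female liver. Without Spp1, an alternative added after seeing the data, the sums turned to 2.65 in male and 3.74 in female liver. Epcam and Krt19 were not called and lay below 0 on the log2 RPKM scale in both sexes, and Sctr lay above the floor in female liver alone. Of 6 stellate cell markers 4 were female-higher (sums 93.4 and 125.4), and of 5 sinusoidal endothelial markers 1 was female-higher (sums 93.9 and 106.1). Dcn, at a log2 RPKM of 6.18 in male and 6.59 in female liver, made up most of both stellate cell sums. Of 5 compared genes of hepatocytes in general, Apoa1 and Serpina1c were male-higher and Ttr, Hnf4a and Asgr1 were not called. Apoa1 stood at 12.68 in male and 12.09 in female liver on the log2 RPKM scale, as befits a tissue rich in hepatocytes, but no value here shows where in the lobule a transcript was made.

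Genes that lay nearest to a called member in both levels were named as a description, with the distance in the plane of the 2 log2 RPKM values. Acat3 (0.03), a gene of acetyl-CoA metabolism, was nearest to Gls2. Sparc, a matrix protein gene (0.11), was nearest to Aldh1b1, Igfals, the carrier subunit of circulating IGF complexes (0.22), to Ctsc, and Nudt7, a peroxisomal coenzyme A hydrolase gene (0.33), to Cyp2f2. Alb stood apart, with Apob nearest at 2.49. With 2 values per gene this says nothing of shared control.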

How the data were processed

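The table was deposited with 21827 gene entries on mm9. Per the file headers it gives the authors' log2 RPKM per sex, their normalized log2 ratio of male over female, a linear ratio, a signed fold change (a score, minus where female is higher) and an adjusted p-value, with no method stated in the sources used here. Bowtie and edgeR are named, without version or role, per the submitters' processing notes. The planned count test needed values per pool, which the table does not hold, so the authors' adjusted p-value was used for all genes, as planned for that case.

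Entries at the floor in both sexes (6590), without a level or ratio (14) or above the floor in 1 sex with the ratio set to 1 (1460, whole multiples within 0.3%) were left out of the 13763 compared genes. The floor was taken as 1 read. With the spans of 1058 olfactory receptor genes it implied 11.2 M reads in male and 14.7 M in female liver, and transcript lengths came from GENCODE vM21 by RefSeq accession. Reads are thus approximate, and their intervals cover counting error alone. The depth recovery was tested on simulated data in which the floor was 1 read and lengths were known, so these assumptions themselves were not tested. Python 3.11.15, pandas 2.3.3 and scipy 1.17.1 were used.

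The 7 genes, 10 further gene lists, 7 cell marker lists and 5 motifs were chosen with earlier results of these data known. Named were all 7 genes, up to 3 called genes per list and direction by ratio (or 2 by level where none was called), nearest neighbours and close relatives. Genes named without their values, genes named to complete a short count, and the urea cycle, glucose, bile duct and hepatocyte genes given beyond this rule were chosen after their values were seen. Glul, Rnf43, Hsd17b8, Mzb1 and Trf were not analysed here. Promoters were found for 6 of the 7 genes, not for Gls2.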

Additional observations from a re-analysis of the deposited data

How the results depend on the processing

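Under 5 other scalings the 7 genes kept their direction in 35 of 35 values, and the counts of called members stayed within 1.5 times. The kept directions are no test, since they were largely fixed in advance. Scaling by the median or by RPKM sums moved all genes alike, by at most 0.0555 on the log2 scale. The smallest plain difference was 0.17, for Pigr, and adding 1 to RPKM cannot change a sign. Gls2 (log2 ratio -0.39, adjusted p = 0.038) lost its call at a threshold of 0.01. By the plain difference of log2 RPKM the ratio was -0.94 for Ctsc and -0.69 for Alb. Less the median of all genes it was -0.94 for Ctsc. With RPKM sums made equal it was -0.93 for Ctsc and -0.69 for Alb, and with log2(RPKM + 1) -0.92 and -0.69. With sums made equal without Alb, an alternative chosen after seeing the data, it was 0.85 for Cyp2f2, -0.99 for Ctsc, 0.18 for Hsd17b13, 0.11 for Pigr and -0.75 for Alb.

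By the plain difference the median was -0.37 for the 7 genes, -0.15 for other periportal genes, -0.66 for pericentral genes, -0.27 for glutamine and glutamate handling, -0.011 for aldehyde dehydrogenases, -0.26 for cathepsins, 0.13 for the Hsd17b family (0.09 as reported by the normalized ratio) and 0.13 for single-gene Cyp2 subfamilies (0.04). Over genes with a log2 RPKM of at least 1 it was -0.63 for pericentral genes, -0.21 for glutamine and glutamate handling, -0.31 for cathepsins, 0.14 for the Hsd17b family and 0.48 for single-gene Cyp2 subfamilies, since fewer genes enter. At a threshold of 0.01, 1 aldehyde dehydrogenase, 1 cathepsin and 0 Hsd17b genes were called, and of the female-higher cell markers 1 of Kupffer cells, 0 of neutrophils and monocytes and 3 of stellate cells. The log2 male over female ratio of the summed bile duct markers reversed from 0.56 to -0.50 without Spp1, an alternative chosen after seeing the data, since Spp1 is most of the sum. No paired analysis was possible because the table gives 1 value per sex, and for the same reason leaving out a pool and the count test were not run. The spread between pools is thus unknown, while counting intervals of the 7 genes are narrow.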
